A study of Homo sapiens with 24 samples.

Results

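The S100 proteins examined here are S100A2, S100A3, S100A4, S100A6, S100A10, S100A11, S100A13, S100A14, S100A16 and S100P. The 10 genes were chosen with earlier results of these data known. Their probes were taken by gene name: every probe that is not a control and whose name in the files is 1 of these 10 symbols. This gave 10 of the 27274 gene names and 11 of the 34127 probes of the array. S100A11 has 2 probes and the other genes 1 each. All 11 probes passed the filter on dim probes, under which 18983 probes were tested. The cells were HCT-116, an established human colorectal carcinoma line, and all 24 arrays came from 1 stably transfected clone that carries a Tet repressor and a doxycycline-inducible, dominant-negative form of Tcf4 (DN-Tcf4) without its beta-catenin interaction domain. Cells were left untreated (Ctl), or received 5 mM sodium butyrate (NaB), 4 ug/ml doxycycline (Doxy) or both agents (DoxyNaB), with 17.5 hr of butyrate, and each of 6 experiments gave 1 array per treatment. The treatments were compared to find the response to butyrate, an inhibitor of histone deacetylases, with and without induction of DN-Tcf4, which competes with beta-catenin-Tcf complexes at Wnt target genes. Effects particular to this clone cannot be told apart from those of HCT-116 cells at large, and in a bulk sample fewer cells that express a gene cannot be told apart from less RNA per cell.

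S100 proteins are small calcium sensors that bind calcium through paired EF-hand motifs, usually as dimers, and then expose a surface that binds a target protein. They have no enzyme activity of their own, and act by changing what annexins, cytoskeletal proteins, receptors and transcription factors do. Most of the genes lie together in the epidermal differentiation complex on chromosome 1, and several are known for altered levels in epithelial tumours, the colon among them.

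Each level below is a log2 ratio: the processed signal of the probe over the signal at the 75th percentile of its own array, taken over spots other than controls, so a difference of 1 is 2-fold and a level of 0 is the 75th percentile. Levels are compared between arrays for 1 probe, and never between probes. A probe was called in limma, with the experiment as a block, where its fold exceeded 2 and its p, adjusted by Benjamini-Hochberg over all probes tested, was under 0.01. Before the treatment results, 3 probe sequences are shown, since what a probe can read decides what its values stand for. Both S100A11 probes read the same transcript side by side: on NCBI36 the first covers chr1:150271843-150271902 and the second chr1:150271784-150271843, on the minus strand, and they share the 1 base in capitals. The S100A6 probe covers 60 bases of RNA across chr1:151773879-151774309, also on the minus strand, a span of 431 bases that takes in a splice junction, so that it reads spliced RNA.

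S100A11, first probe: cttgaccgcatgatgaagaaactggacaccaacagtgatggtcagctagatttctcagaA
S100A11, second probe: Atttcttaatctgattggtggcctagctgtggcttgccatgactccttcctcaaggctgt
S100A6: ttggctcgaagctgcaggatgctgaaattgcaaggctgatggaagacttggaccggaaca

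The targeted gene was checked first, since DN-Tcf4 RNA is also read by probes to TCF7L2, the gene of Tcf4. At 1 TCF7L2 probe the level was -2.49 ± 1.17 in Ctl, -2.66 ± 0.81 in Doxy, -1.58 ± 1.07 in NaB and 1.39 ± 0.49 in DoxyNaB (mean and SD, n = 6). The DoxyNaB arrays lay above all others there (log2 change of 2.96 over NaB, SE 0.36, adjusted p = 3.65e-05), whereas Doxy and Ctl differed by -0.17 (SE 0.36, adjusted p = 0.921). At the probe nearest the 5′ end DoxyNaB was not above NaB (from -4.75 to -2.83, against -3.39 to -1.93). The endogenous gene and the construct cannot be told apart at the first of these probes. AXIN2, a negative regulator of Wnt signaling and a target of it, fell by 0.58 in Doxy over Ctl (SE 0.09, adjusted p = 0.0029) and by 2.53 in DoxyNaB over NaB (SE 0.09, adjusted p = 2.64e-11). Below, Doxy names the label of the arrays, since at the first TCF7L2 probe RNA was not measured to be higher under it than in Ctl. At the probe nearest the 5′ end Doxy was at -2.16 ± 0.42 and Ctl at -2.53 ± 0.33, with ranges that overlapped. At another probe they were at -5.40 ± 0.97 and -5.69 ± 0.77, again with overlap, where NaB was at -3.79 and DoxyNaB at 0.67. Of 11 colon epithelial markers, 7 were tested and all 7 were well above background on every array, EPCAM, KRT8, KRT18, CDH1 and CDX2 among them, while the intestinal markers CDH17, VIL1, GPA33 and CEACAM5 did not pass the filter. Summed over the list, markers of fibroblasts, leukocytes and endothelium were at 0.106 to 1.61 times an array's 75th percentile, against 210.3 to 502.2 for the epithelial list, and the leukocyte sum was higher with butyrate (0.305 to 0.604 in Ctl, 0.900 to 1.27 in NaB, 0.348 to 0.601 in Doxy and 0.951 to 1.45 in DoxyNaB). The fibroblast sum overlapped between Ctl (0.362 to 0.549) and NaB (0.316 to 1.22) but not between Doxy (0.271 to 0.580) and DoxyNaB (0.757 to 1.61), and the endothelial sum overlapped in both. The part of these markers in the results below was not tested.

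With butyrate, all 11 S100 probes had lower levels, in NaB over Ctl and in DoxyNaB over Doxy, with the exception of S100P in the latter when normexp, which models background and signal together from the uncorrected spot means, replaced the scanner's correction (0.061). In each comparison 5 of the 11 probes were called, all of them lower: S100A2, S100A3, S100A10, S100A14 and S100A16. Among all 18983 probes, 11% were called lower in NaB over Ctl and 12.3% in DoxyNaB over Doxy. Without the fold threshold, 11 and 10 of the 11 passed an adjusted p under 0.01, beside 28.2% and 29.7% of all probes that passed it and were lower. Both counts include S100P, which passed the filter on dim probes only through the treatments without butyrate, where it was higher. The median log2 change of the 11 probes was -0.88 in NaB over Ctl and -0.92 in DoxyNaB over Doxy, against 0.17 and 0.10 over all probes tested. Since the genes were chosen with earlier results of these data known, these counts and medians are a description. Of all calls in NaB over Ctl and in DoxyNaB over Doxy, 65.3% and 59.9% were higher, a split that moved to 47.7% and 47% with quantile normalization and to 21.9% and 26% with median scaling, while 0 of the 11 S100 probes was called higher by limma under any of these. These 2 comparisons share no arrays with each other.

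**Figure D1:**
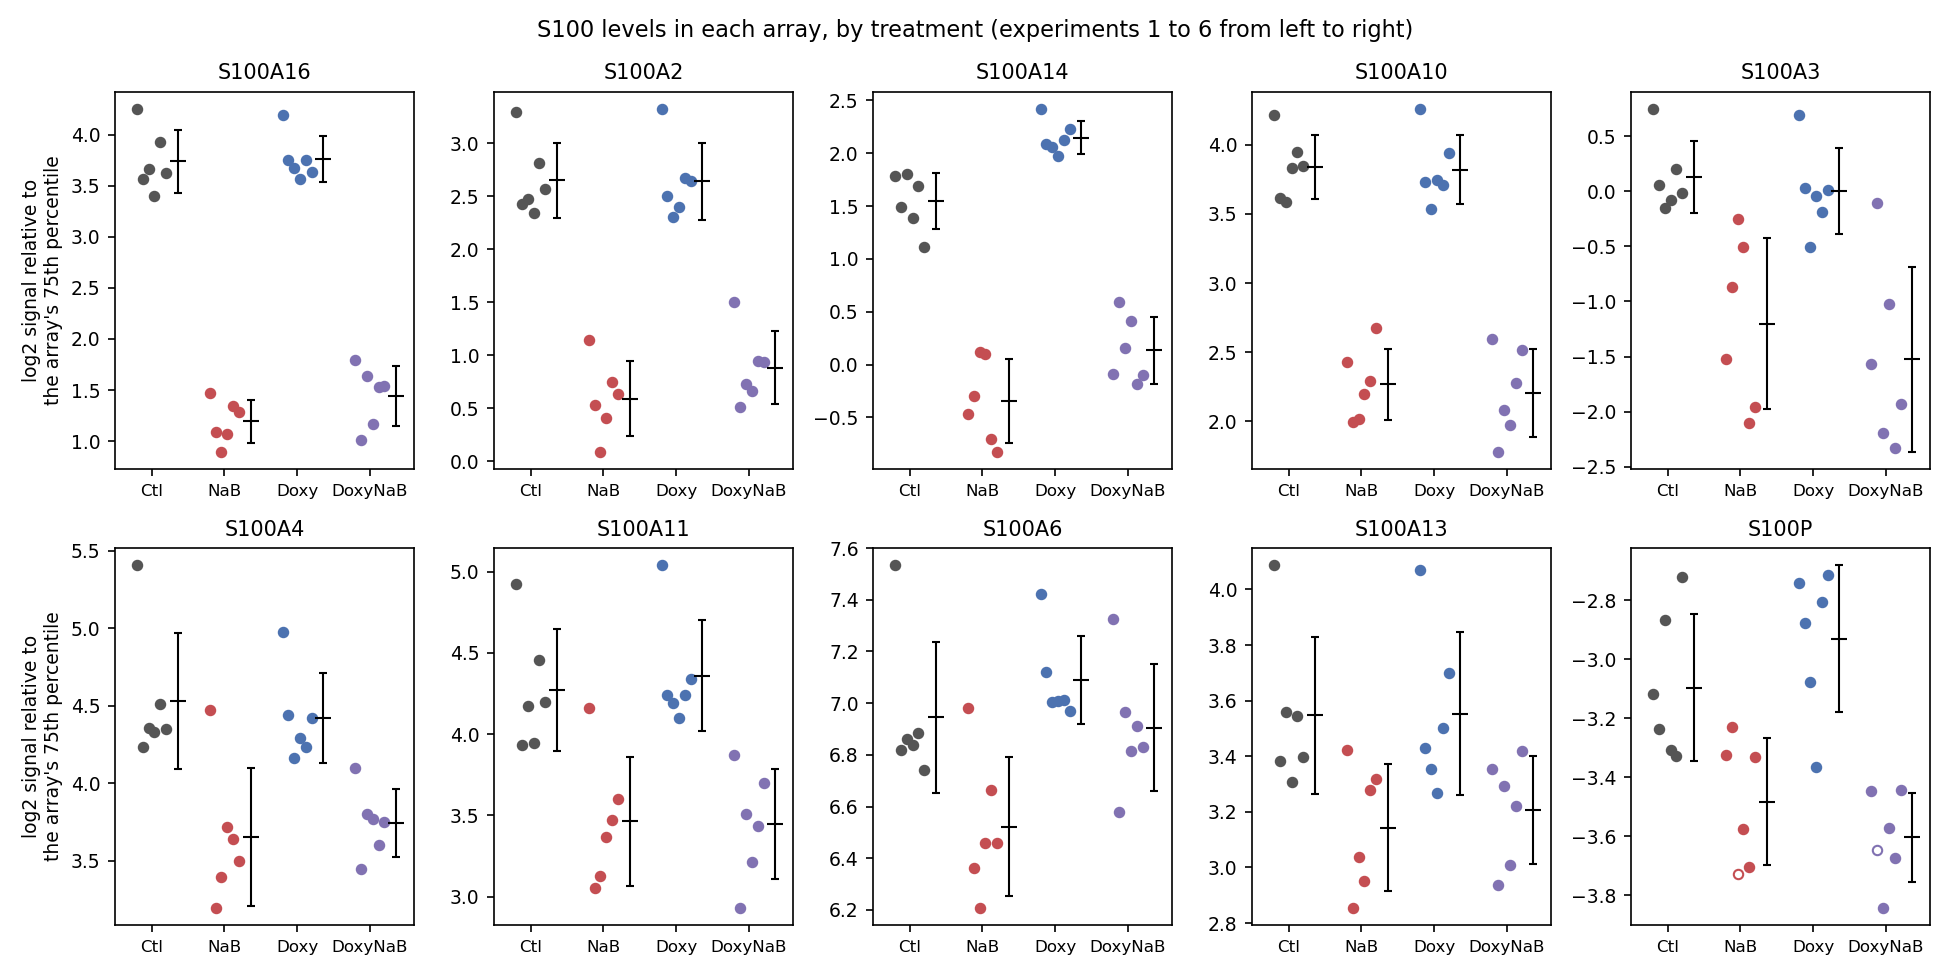
Level of each S100 gene on every array, as log2 signal relative to the array's 75th percentile, with 1 panel per gene, 6 experiments per treatment in order from left to right, and black bars for the mean and SD; open circles are spots not well above background, and each panel has its own vertical scale. The arrays with butyrate (NaB, DoxyNaB) lie below those without it (Ctl, Doxy) in the S100A16, S100A2, S100A14 and S100A10 panels with no overlap, while the S100A6, S100A13 and S100P panels span less than 1.5 units each.

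S100A10 and S100A11 are the partners of annexins. S100A10, which has lost the ability to bind calcium and forms a complex with annexin A2 that gathers plasminogen and its activators at the cell surface, had levels from 3.58 to 4.21 (median 3.84) in Ctl and from 2.00 to 2.67 (median 2.24) in NaB. With doxycycline they were from 3.54 to 4.26 (median 3.74) without butyrate and from 1.78 to 2.59 (median 2.18) with it. No array with butyrate reached the lowest array without it. S100A10 was 2.97-fold lower in NaB over Ctl (log2 change -1.57, SE 0.08, adjusted p = 6.21e-12) and 3.06-fold lower in DoxyNaB over Doxy (-1.61, SE 0.08, adjusted p = 4.07e-12), in 6 of 6 experiments each time.

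S100A11, a partner of annexin A1 that takes part in membrane repair and in keratinocyte growth control, fell by less than 2-fold. Its second probe was from 3.94 to 4.93 (median 4.18) in Ctl, from 3.05 to 4.16 (median 3.42) in NaB, from 4.10 to 5.04 (median 4.24) in Doxy and from 2.93 to 3.87 (median 3.47) in DoxyNaB. The treatments overlapped in NaB against Ctl and did not in DoxyNaB against Doxy. The log2 changes were -0.81 (SE 0.09, adjusted p = 2.41e-07) and -0.92 (SE 0.09, adjusted p = 4.75e-08). The first probe gave -0.80 (SE 0.10) and -0.80 (SE 0.11), the latter over 5 experiments, since its spot on the DoxyNaB array of experiment 1 had an outlier flag and was left out. The 2 probes, which adjoin on the transcript as printed above, thus gave falls of like size.

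S100A4, S100A6 and S100P bind cytoskeletal and ubiquitin-ligase proteins and are known for roles in cell motility. S100A4 (metastasin), which binds the heavy chain of non-muscle myosin IIA and loosens its filaments, was from 4.23 to 5.41 (median 4.35) in Ctl and from 3.20 to 4.48 (median 3.57) in NaB. In the arrays with doxycycline it was from 4.16 to 4.97 (median 4.36) without butyrate and from 3.45 to 4.10 (median 3.76) with it. The NaB array of experiment 1 reached the Ctl range, so Ctl and NaB overlapped, although each experiment's own pair went down. S100A4 fell by 0.88 on the log2 scale in NaB over Ctl (SE 0.10, adjusted p = 3.48e-07) and by 0.68 in DoxyNaB over Doxy (SE 0.10, adjusted p = 8.87e-06), and both are under 2-fold. Its myosin target MYH9 differed by -0.06 in NaB over Ctl (SE 0.09, adjusted p = 0.534), with a sign that turned under normexp and quantile normalization.

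S100A6 (calcyclin), a ligand of the ubiquitin-ligase adaptor CACYBP, was from 6.74 to 7.53 (median 6.85) in Ctl and from 6.21 to 6.98 (median 6.46) in NaB. In Doxy it was from 6.97 to 7.42 (median 7.01), and in DoxyNaB from 6.58 to 7.33 (median 6.87). The treatments overlapped in both comparisons. It fell by 0.42 in NaB over Ctl (SE 0.07, adjusted p = 4.91e-05), while the change of -0.19 in DoxyNaB over Doxy did not pass an adjusted p under 0.01 (SE 0.07, adjusted p = 0.0314, lower in 6 of 6 experiments). S100A6 was the smallest change of the 10 genes with doxycycline present. CACYBP, whose protein links S100A6 to the turnover of beta-catenin, fell by 1.37 in NaB over Ctl (SE 0.08, adjusted p = 4.45e-11), a 2.59-fold lower level.

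S100P, first found in placenta and a ligand of the receptor for advanced glycation end products and of ezrin, was the only member with a spot not well above background. It passed the filter through Ctl and Doxy only, with 5 of 6 arrays well above background in NaB and in DoxyNaB. The part of the filter in its fall was not tested. Its levels were from -3.33 to -2.72 (median -3.18) in Ctl, from -3.73 to -3.23 (median -3.45) in NaB, from -3.36 to -2.71 (median -2.84) in Doxy and from -3.84 to -3.44 (median -3.61) in DoxyNaB. The spot was not well above background on the NaB array of experiment 3 and the DoxyNaB array of experiment 2, the 2 arrays of highest negative control signal (described with S100A3 below). The fitted changes were -0.39 (SE 0.10, adjusted p = 0.00278, lower in 5 of 6 experiments) and -0.67 (SE 0.10, adjusted p = 1.33e-05, 6 of 6). Without these 2 arrays they were -0.35 (adjusted p = 0.00985) and -0.66 (adjusted p = 5.83e-05). With normexp background correction the second became 0.061 (adjusted p = 0.799), and with quantile normalization they became -1.52 and -1.39, so the direction of S100P in DoxyNaB over Doxy rests on the background correction.

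S100A2, an epithelial member found in the nucleus that binds p53, was from 2.34 to 3.29 (median 2.52) in Ctl and from 0.09 to 1.14 (median 0.58) in NaB. With doxycycline its levels were from 2.30 to 3.32 (median 2.58) and, with butyrate added, from 0.52 to 1.51 (median 0.83). The lowest array without butyrate stood well above the highest with it. The level was 4.17-fold lower in NaB over Ctl (log2 change -2.06, SE 0.07, adjusted p = 2.25e-14) and 3.38-fold lower in DoxyNaB over Doxy (-1.76, SE 0.07, adjusted p = 1.43e-13).

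S100A16, a widely expressed member that binds calcium weakly, was from 3.39 to 4.25 (median 3.65) in Ctl, from 0.89 to 1.48 (median 1.19) in NaB, from 3.56 to 4.19 (median 3.71) in Doxy and from 1.01 to 1.79 (median 1.53) in DoxyNaB. All 12 arrays with butyrate lay below all 12 without it. The log2 change was -2.55 in NaB over Ctl, a 5.84-fold lower level (SE 0.09, adjusted p = 4.46e-14), and -2.32 in DoxyNaB over Doxy, 4.98-fold lower (SE 0.09, adjusted p = 1.3e-13). These were the largest fitted changes of the 10 genes in both comparisons. Single experiments gave -2.77 to -2.33 in NaB over Ctl and -2.74 to -2.04 in DoxyNaB over Doxy.

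S100A14, an epithelial member with an altered second EF-hand, was from 1.12 to 1.80 (median 1.59) in Ctl and from -0.83 to 0.12 (median -0.38) in NaB. It was from 1.97 to 2.42 (median 2.11) in Doxy and from -0.18 to 0.60 (median 0.03) in DoxyNaB. Neither comparison overlapped. It was 3.71-fold lower in NaB over Ctl (log2 change -1.89, SE 0.16, adjusted p = 4.08e-09) and 4.04-fold lower in DoxyNaB over Doxy (-2.02, SE 0.16, adjusted p = 1.73e-09).

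S100A3 and S100A13 are known for binding metals other than calcium or for work outside the cell. S100A13, which binds copper and takes part in the release of fibroblast growth factor 1, was from 3.31 to 4.09 (median 3.47) in Ctl, from 2.85 to 3.42 (median 3.16) in NaB, from 3.27 to 4.07 (median 3.47) in Doxy and from 2.94 to 3.42 (median 3.26) in DoxyNaB. The treatments overlapped, and the falls of 0.40 (SE 0.08, adjusted p = 0.000247) and 0.35 (SE 0.08, adjusted p = 0.000995) were under 2-fold although each went the same way in 6 of 6 experiments. FGF1 itself did not pass the filter.

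S100A3, a cysteine-rich member of the hair cuticle that binds zinc, was the least even. Its levels were from -0.15 to 0.74 (median 0.02) in Ctl, from -2.10 to -0.25 (median -1.19) in NaB, from -0.50 to 0.69 (median -0.01) in Doxy and from -2.33 to -0.11 (median -1.75) in DoxyNaB. NaB lay below Ctl on all arrays, while the highest DoxyNaB array reached the Doxy range. The fitted changes were -1.33 (SE 0.32, adjusted p = 0.00117) and -1.53 (SE 0.32, adjusted p = 0.000339). In experiments 1 to 6 the change in NaB over Ctl was -2.26, -0.92, -0.10, -0.42, -2.30 and -1.95. In DoxyNaB over Doxy it was -2.26, -0.14, -1.69, -0.98, -2.15 and -1.94. The largest falls came from experiments 1, 5 and 6. In experiments 5 and 6 the processed S100A3 signal was only 88.7 and 124 units in NaB, and 96.7 and 140 in DoxyNaB. These spots were well above background, and the part of low signal in the falls was not tested. The smallest changes were NaB of experiment 3 and DoxyNaB of experiment 2.

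Those 2 arrays also had the highest negative control signal of all 24, at 161 and 248.9 units, where the other 22 had 48.4 to 115. The part of that signal in the S100A3 result was not tested. Without the 2 arrays the changes were -1.60 (adjusted p = 1.02e-05) and -1.77 (adjusted p = 3.25e-06). In experiments 2 to 4, which were scanned together, they were -0.48 (adjusted p = 0.307) and -0.94 (adjusted p = 0.0673), and S100A3 was not called. S100A2, S100A10, S100A14 and S100A16 were called there, and all 5 genes were called in experiments 5 and 6. S100A16 on the same arrays gave -2.77 for NaB of experiment 3 and -2.74 for DoxyNaB of experiment 2, the most negative of each comparison.

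**Figure D2:**
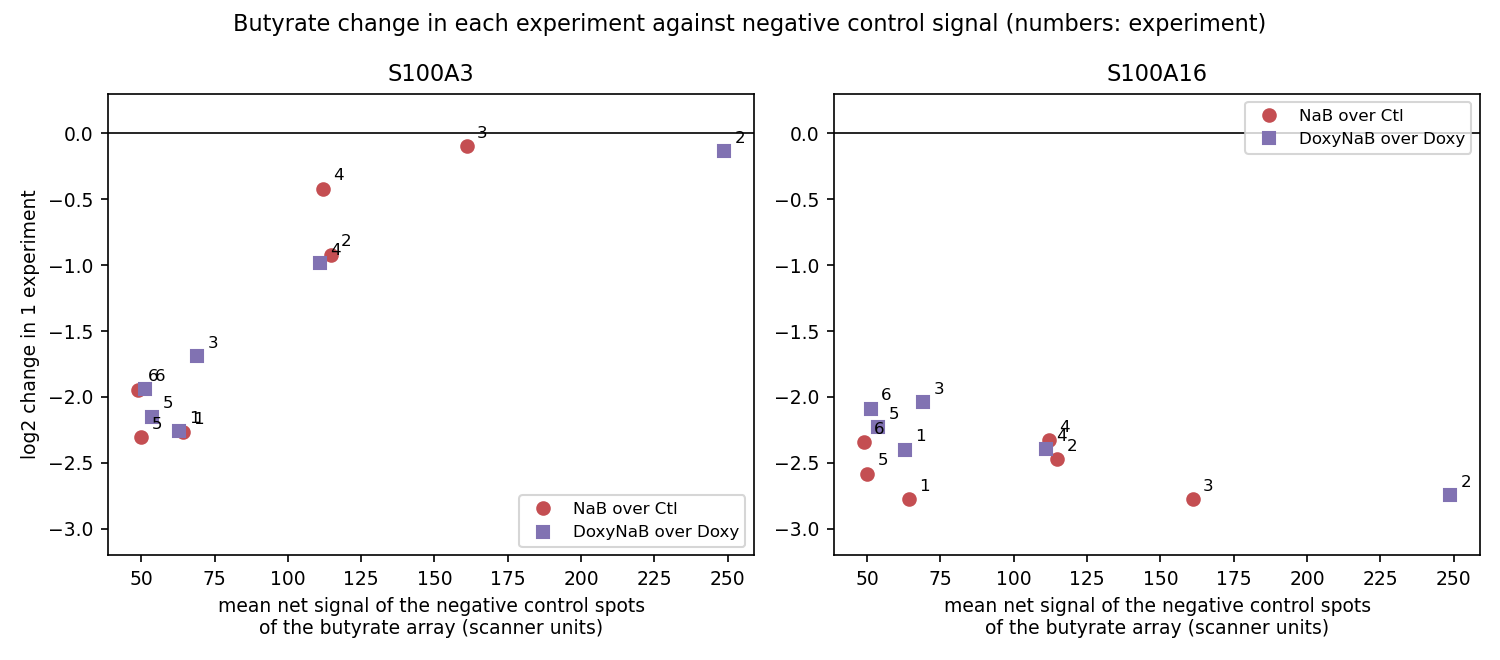
Log2 change of S100A3 (left) and S100A16 (right) with butyrate in each experiment, against the mean net signal of the negative control spots on the butyrate array in scanner units; circles are NaB over Ctl, squares DoxyNaB over Doxy, and numbers give the experiment. S100A3 changes lie near 0 at 161 and 248.9 units and from -2.30 to -1.69 where the signal is under 70, while S100A16 lies between -2.77 and -2.04 throughout.

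**Figure D3:**
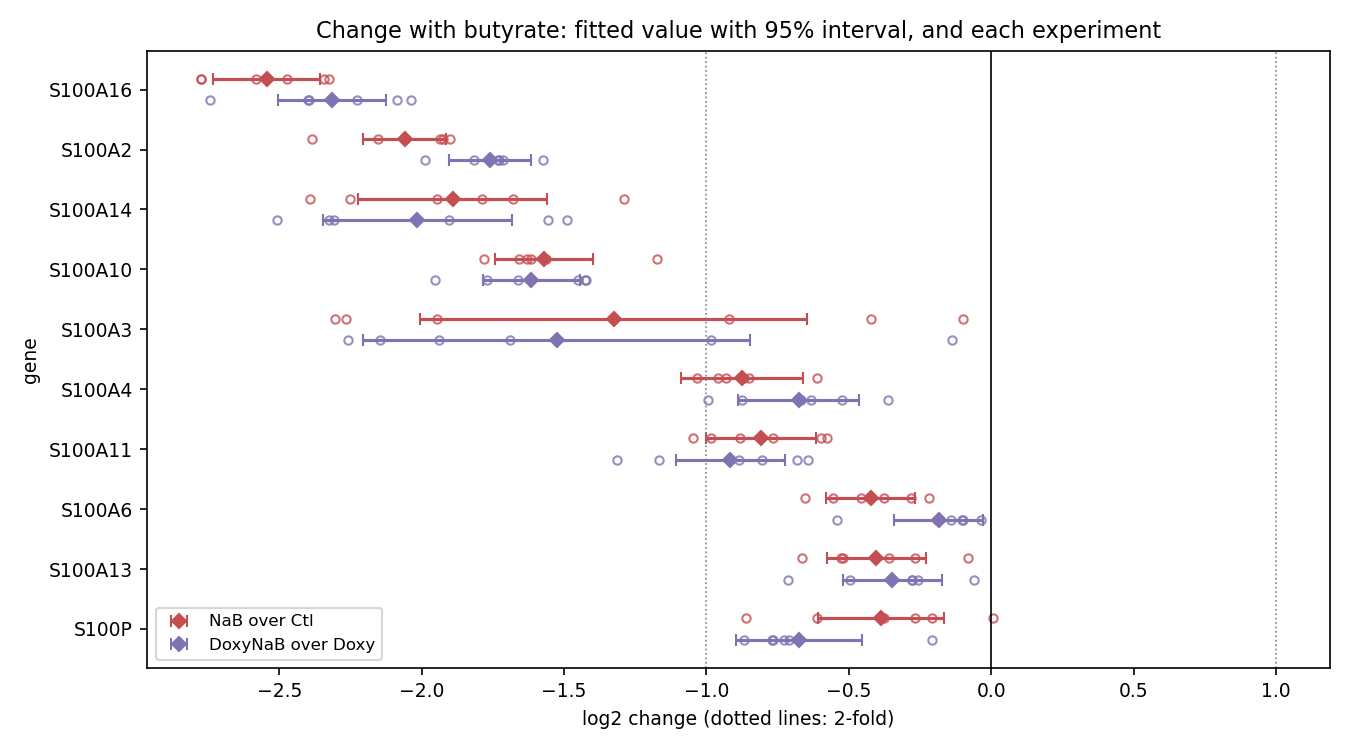
Log2 change with butyrate for the 10 genes, from the most to the least negative in NaB over Ctl; diamonds with bars are fitted values with 95% intervals, open circles single experiments, and dotted lines mark 2-fold. All fitted values are below 0 (S100P in DoxyNaB over Doxy is 0.061 with normexp background correction), and S100A3 has the widest spread over experiments.

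The levels of most members moved together over the 24 arrays once each experiment's mean was removed. Pearson's r was highest between S100A2 and S100A16 (0.998) and lowest between S100A3 and S100A6 (0.305). For S100A4, the named probes most like it over the 24 arrays were those of PFDN1 (0.979), SARS2 (0.978) and TMEM218 (0.976), and for S100P those of ECHDC2 (0.928), ANTXR2 (0.922) and ENAH (0.915). Since these arrays share the treatments, the values are given as a description.

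On chromosome 1 the probes of the 9 S100A genes lie on the minus strand of NCBI36 in the order S100A10, S100A11, S100A6, S100A4, S100A3, S100A2, S100A16, S100A14 and S100A13, from chr1:150222044-150222103 to chr1:151857909-151857968, and the S100P probe lies on chromosome 4 at chr4:6749720-6749779 on the plus strand. The 4 genes S100A3, S100A2, S100A16 and S100A14 are neighbours among the members, and all 4 were called lower in both comparisons. The next members on either side, S100A4 and S100A13, changed by less than 2-fold. Of 84 other probes within 500 kb of a member on chromosome 1, 34 were tested, and 5 were called lower in NaB over Ctl (14.7%, beside 11% of all probes) and 7 higher, where 20.7% of all probes were. RIIAD1 (log2 change 3.25, well above background on 3 of 6 Ctl arrays), TUFT1 (2.65) and TCHH (2.55 at 1 probe and 2.60 at another) rose, as did both tested probes of TDRKH (1.86 and 2.10). RIIAD1 and the TCHH probe of 2.60 passed the filter only through treatments with butyrate. With normexp RIIAD1 gave 1.17, the TCHH probes 1.08 and 0.83 and the TDRKH probes 1.01 and 1.12, while TUFT1 gave 2.56. SLC39A1, a zinc transporter, fell by 1.37, and MRPL9, a mitochondrial ribosomal protein, also by 1.37. Near S100P, 15 of 20 other probes were tested, and 5 were called higher and 0 lower, beside 20.7% and 11% of all probes. The 5 were CFAP184 (2.33), WFS1 (1.84), LOC100134937 (1.51, well above background on 4 of 6 Ctl arrays), MAN2B2 (1.33) and FLJ36777 (1.11). With normexp they gave 1.21, 1.59, 0.44, 1.08 and 0.54. In the interaction test described below, 1 of these 15 passed, LOC93622 (0.59, limma adjusted p = 0.00068), and 0 of the 34 on chromosome 1, beside 1.24% of all probes.

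**Figure D4:**
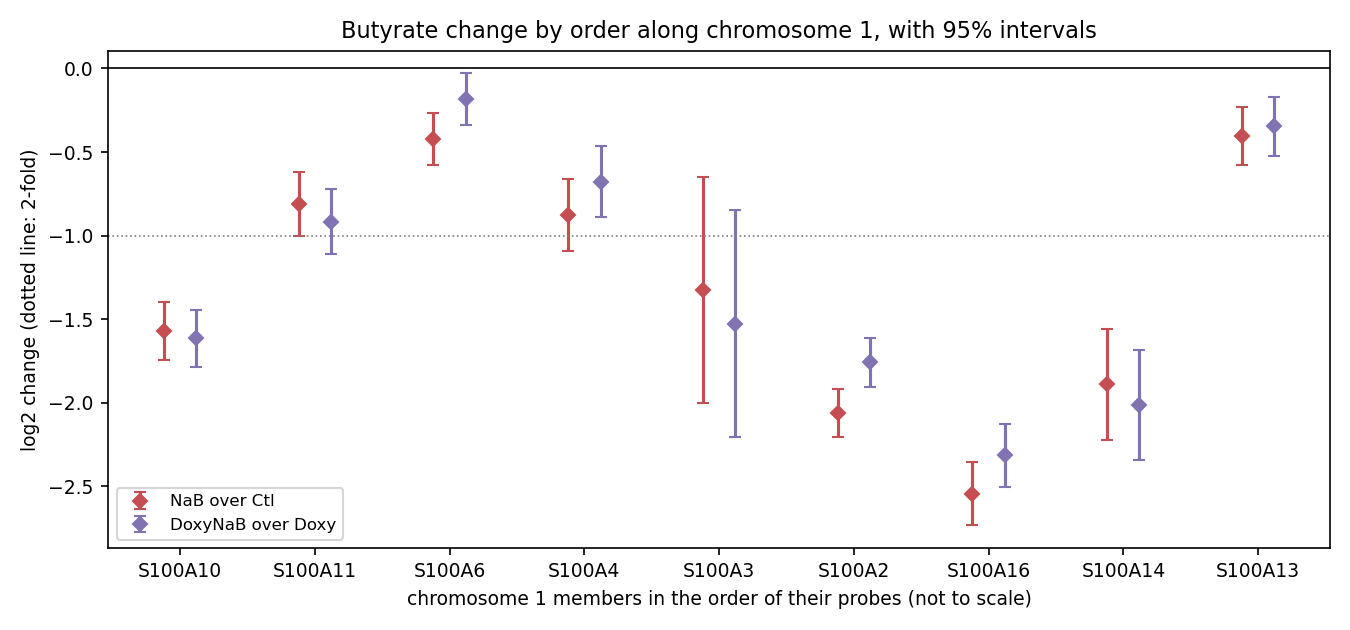
Log2 change with butyrate of the 9 members on chromosome 1, in the order of their probes and not to scale, with 95% intervals; the dotted line marks a 2-fold fall. S100A3, S100A2, S100A16 and S100A14, next to each other, lie below -1, as does S100A10 at the other end.

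To show the sequence before the starts of genes that moved together, the 250 bases upstream of the RefSeq start on GRCh38.p14 are printed for the 3 members of largest change in NaB over Ctl (S100A16, S100A2 and S100A14) and for S100A6, whose change with doxycycline present was smallest. These were chosen after their values were seen. Capitals mark GGGCGG, the GC box, on either strand. Of the 4 sequences printed they occur in that of S100A6 only, but the second start of S100A16, not printed, also holds 1. The regions, all on the minus strand, are chr1:153613138-153613387 for S100A16, chr1:153565845-153566094 for S100A2, chr1:153616326-153616575 for S100A14 and chr1:153535992-153536241 for S100A6, and S100A16 and S100A2 have a second start that is not printed.

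S100A16: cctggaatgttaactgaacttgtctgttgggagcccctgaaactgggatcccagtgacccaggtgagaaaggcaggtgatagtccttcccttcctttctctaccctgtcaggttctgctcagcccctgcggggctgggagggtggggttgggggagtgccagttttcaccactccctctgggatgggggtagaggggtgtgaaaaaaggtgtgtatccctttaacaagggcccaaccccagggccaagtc
S100A2: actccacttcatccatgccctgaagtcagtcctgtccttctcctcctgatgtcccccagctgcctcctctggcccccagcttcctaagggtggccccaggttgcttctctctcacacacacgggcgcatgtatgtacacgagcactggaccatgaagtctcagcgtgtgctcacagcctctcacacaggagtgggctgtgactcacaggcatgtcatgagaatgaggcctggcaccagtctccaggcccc
S100A14: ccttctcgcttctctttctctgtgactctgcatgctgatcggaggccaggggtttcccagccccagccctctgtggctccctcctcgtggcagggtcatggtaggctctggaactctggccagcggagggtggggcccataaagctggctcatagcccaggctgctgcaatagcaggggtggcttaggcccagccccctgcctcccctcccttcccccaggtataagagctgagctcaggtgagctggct
S100A6: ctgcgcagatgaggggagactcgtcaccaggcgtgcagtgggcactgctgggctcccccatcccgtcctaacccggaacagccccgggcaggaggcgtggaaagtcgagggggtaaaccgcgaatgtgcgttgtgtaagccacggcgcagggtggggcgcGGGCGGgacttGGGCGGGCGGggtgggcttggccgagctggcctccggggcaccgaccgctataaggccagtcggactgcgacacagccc

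All 10 genes have such a sequence, for 14 starts in all. The TCF motifs CTTTGAA and CTTTGAT were searched on both strands and were in 0 of the 14 sequences, where 5.94% of 35116 promoters of the same length held at least 1 of them. GGGCGG was in 6 of the 14, for 6 genes, beside 42.6% of all promoters, and its matches can overlap. The 6 genes were S100A3, S100A6, S100A10, S100A11, S100A13 and S100A16, the last at its second start. The first starts of S100A16, S100A2 and S100A14 had 1, 4 and 4 CG pairs, and those of S100A3, S100P and S100A4 had 4, 4 and 7. Those of S100A11 and S100A13 had 15 each, those of S100A6 and S100A10 had 24 each, and the median of all promoters was 11. Of these genes, S100A16, S100A2, S100A14, S100A3 and S100A10 were called lower. S100P, S100A4, S100A11, S100A13 and S100A6 were not. A relation between CG pairs and the changes was not tested. A motif match or its absence in this window is a description of the letters only.

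S100 levels differed little between the arrays labelled Doxy and Ctl, with S100A14 the farthest apart. The methods' paired t-test was run with Benjamini-Hochberg adjustment, which the methods do not name. In the arrays labelled Doxy over Ctl it called 0 of 11 probes. By limma 0 were called as well, beside 0.0948% of all probes, with 1 at an unadjusted p under 0.05. The 1 was S100A14, whose levels are given above: all 6 Doxy arrays lay above all 6 Ctl arrays, and the log2 change was 0.60 (SE 0.16, adjusted p = 0.0726, higher in 6 of 6 experiments), a level 1.52-fold that of Ctl. The other 10 probes changed by -0.13 to 0.17. For S100A16 the interval of the difference was -0.17 to 0.21, for S100A2 -0.15 to 0.13 and for S100A4 -0.32 to 0.10, so changes up to these bounds were not detectable here.

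In DoxyNaB over NaB, where TCF7L2 RNA was high and AXIN2 low, limma called 0 of 11 probes at 2-fold, beside 0.379% of all probes, with 4 at an unadjusted p under 0.05 and 0 called by the methods' t-test. These 4 were higher. S100A6 rose by 0.38 on the log2 scale (SE 0.07, adjusted p = 0.00416, 6 of 6 experiments), a level 1.3-fold that of NaB, and passed an adjusted p under 0.01 but not the fold threshold, where 0.616% of all probes passed that p and were higher. Experiment 3 gave the largest S100A6 difference (0.76), and without that experiment the change was 0.31 (adjusted p = 0.0343), with normexp background correction 0.23 (adjusted p = 0.484). The others did not pass it: S100A2 by 0.29 (SE 0.07, adjusted p = 0.0176, higher in 5 of 6), S100A14 by 0.48 (SE 0.16, adjusted p = 0.103, 6 of 6) and S100A16 by 0.25 (SE 0.09, adjusted p = 0.138, 5 of 6). S100A4 differed by 0.09 (95% interval -0.12 to 0.30) and S100P by -0.12 (-0.34 to 0.10), and both signs turned with normexp background correction.

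**Figure D5:**
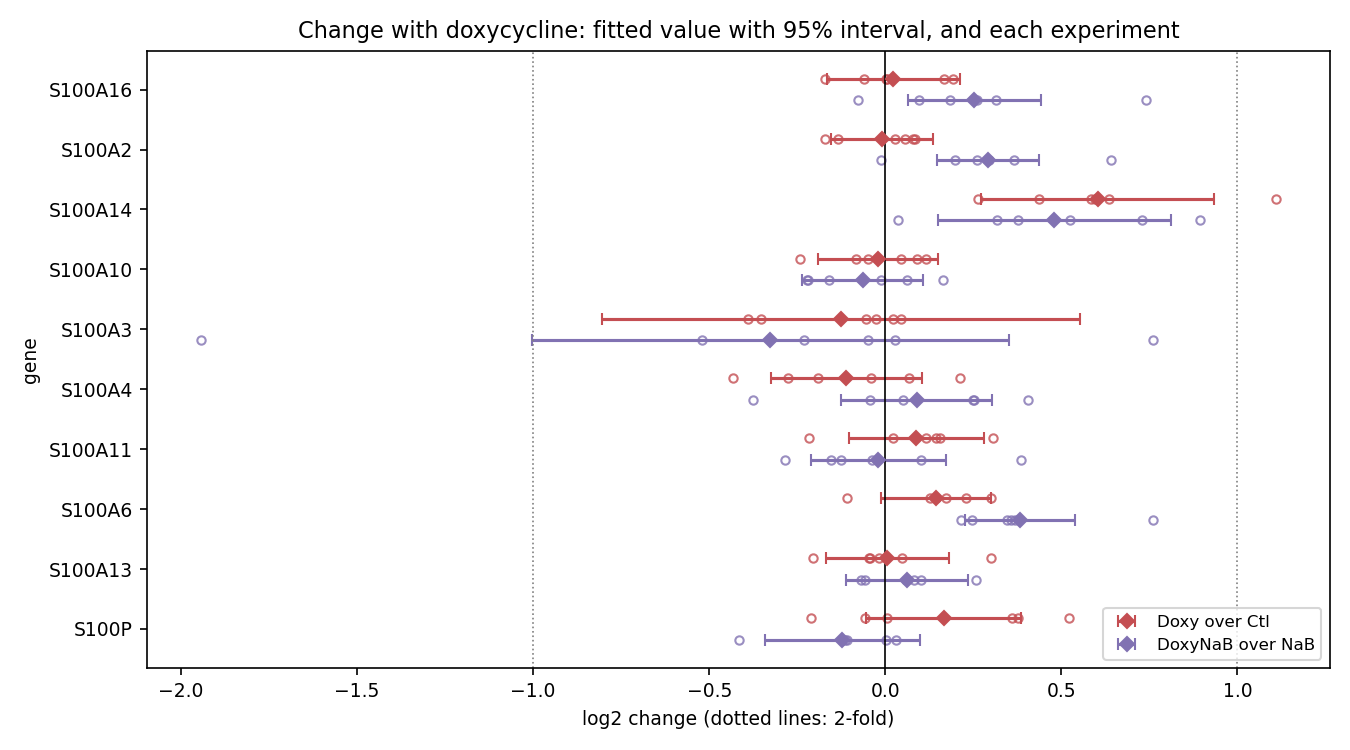
Log2 change with doxycycline for the 10 genes, in the same order as in the plot of butyrate changes; diamonds with bars are fitted values with 95% intervals, open circles single experiments, and dotted lines mark 2-fold. All fitted values lie within 2-fold, S100A14 is the farthest from 0 in Doxy over Ctl at 0.60, and the interval of S100A6 in DoxyNaB over NaB lies above 0.

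The design also asks whether the butyrate response differed between the presence and the absence of DN-Tcf4. It was tested as an interaction, the change in NaB over Ctl minus that in DoxyNaB over Doxy, at an adjusted p under 0.01. By the methods' t-test, with the adjustment added as above, 0 of the 11 probes passed. By limma 0 passed as well, beside 1.24% of all probes, with 2 at an unadjusted p under 0.05. The 2 were S100A2 (difference -0.30, SE 0.10, adjusted p = 0.15, below 0 in 5 of 6 experiments) and S100A6 (-0.24, SE 0.10, adjusted p = 0.356, 5 of 6). In both the fall with butyrate was larger without doxycycline. For both genes experiment 3 gave the difference farthest from 0 (-0.81 and -0.62). Without the 2 arrays of high negative control signal named above, S100A2 gave -0.29 (adjusted p = 0.0558) and S100A6 -0.23 (adjusted p = 0.196). The difference for S100A4 was -0.20 (95% interval -0.50 to 0.10, below 0 in 6 of 6) and for S100P 0.29 (-0.02 to 0.60), and both signs turned with normexp background correction. For S100A10 the interval was -0.20 to 0.29 and for S100A16 -0.50 to 0.04 log2 units. For S100A3 it was -0.76 to 1.16, too wide to bound one below 2-fold.

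Of other S100 family members and related genes of the same cluster (S100A1, S100A5, S100A7, S100A8, S100A9, S100B, fused-type S100 genes such as TCHH, and the S100P-binding protein S100PBP), 19 are on the array and 3 passed the filter. S100A8 and S100A9, which form calprotectin in myeloid cells, were not among them. S100A5 changed by -0.54 in NaB over Ctl (SE 0.28, adjusted p = 0.0867), S100PBP fell by 0.67 (SE 0.06, adjusted p = 1.06e-08), and TCHH, a keratin-associated protein of the hair follicle, rose by 2.55 (SE 0.15, adjusted p = 4.78e-11, well above background on 4 of 6 Ctl arrays), or 1.08 with normexp.

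The annexins, calcium-dependent phospholipid-binding proteins, include the main partners of S100A10 and S100A11. Of 11 tested, 3 were called lower in NaB over Ctl and 0 higher, beside 31.7% of all probes called in either direction. These were ANXA3 (log2 change -3.79, SE 0.10), ANXA10 (-2.53, SE 0.43) and ANXA4 (-1.22, SE 0.08), and the same 3 were called lower in DoxyNaB over Doxy. ANXA2, the partner of S100A10, changed by 0.29 (SE 0.07, adjusted p = 0.0016), higher in 6 of 6 experiments while S100A10 was lower in 6 of 6, but -0.45 with median scaling. ANXA1, the partner of S100A11, passed the interaction test (0.71, SE 0.14, adjusted p = 0.00645): it differed by 0.29 in NaB over Ctl (SE 0.10, adjusted p = 0.0115, -0.44 with median scaling) and fell by 0.42 in DoxyNaB over Doxy (SE 0.10, adjusted p = 0.00076).

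A list of 37 genes for S100 targets and partners had 31 tested, of which 10 were called lower and 3 higher in NaB over Ctl, where 11% and 20.7% of all probes were. In DoxyNaB over Doxy 6 were lower and 4 higher, where 12.3% and 18.3% of all probes were. Among those called in NaB over Ctl were PLAU, the urokinase plasminogen activator (log2 change -3.10, SE 0.10), NCAM1, a neural cell adhesion molecule (3.02, SE 0.21, well above background on 1 of 6 Ctl arrays), TRPV6, an epithelial calcium channel whose surface delivery needs S100A10 (2.40, SE 0.23, on 3 of 6 Ctl arrays), ITGB4, an integrin of hemidesmosomes (-2.16, SE 0.09), AGER, the receptor for advanced glycation end products (-1.93, SE 0.25), and the protease CTSB (1.77, SE 0.08). With normexp NCAM1 gave 0.67, TRPV6 0.83 and AGER -1.35, against -2.01 for ITGB4 and 1.85 for CTSB. With quantile normalization AGER gave -2.95. AGER was well above background on 5 of 6 NaB arrays. NCAM1 and TRPV6 passed the filter only through treatments with butyrate, and AGER only through those without it. PLAU was higher in DoxyNaB than in NaB, by 1.04 (SE 0.10, adjusted p = 2.43e-06), the only gene of the list called in that comparison. The median change of the list was -0.19 in NaB over Ctl, against 0.17 over all probes, and 0 of 31 passed the interaction test by limma, the lowest adjusted p being 0.0138 for PLAU.

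The EF-hand list holds calmodulin and other small calcium-binding proteins outside the S100 family. Of 36 tested, 11 were called higher and 5 lower in NaB over Ctl, where 20.7% and 11% of all probes were, and the median was 0.60. NCALD, CALB1, RCN3, EFHD1 and CALML6 passed the filter on dim probes only through treatments with butyrate, where they were high. Their rises therefore do not bear on the count or the median apart from the filter. NCALD, a neuronal calcium sensor, and CALB1, calbindin, were well above background on 0 of 6 Ctl and 6 of 6 NaB arrays, so that their rise is given as a bound, the mean of NaB over the higher of the dim probe's own signal and the lowest signal well above background on each Ctl array. NCALD was at least 8.67-fold higher in NaB (adjusted p = 3.53e-13) and CALB1 at least 6.42-fold higher (adjusted p = 1.89e-08). RCN3 (log2 change 3.09, SE 0.30, well above background on 3 of 6 Ctl arrays), HPCAL4 (2.81, SE 0.16, 4 of 6) and EFHD1 (2.70, SE 0.19, 5 of 6) also rose, and RCN1, a calcium-binding protein of the endoplasmic reticulum, fell by 2.73 (SE 0.07). With normexp RCN3, HPCAL4 and EFHD1 gave 1.43, 1.31 and 1.30, NCALD 1.27 and CALB1 0.60, whereas RCN1 gave -2.58. In DoxyNaB over Doxy 11 were called higher and 4 lower, where 18.3% and 12.3% of all probes were. The S100 members and these genes share the EF-hand and were measured on the same arrays, and 0 of the 11 S100 probes were higher in either butyrate comparison.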

How the data were processed

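RNA of 24 samples of 1 HCT-116 clone (4 treatments, 6 experiments) was hybridised to one-colour Agilent arrays of 44495 spots. The authors deposited scanner output, whose processed signal is an intensity, background-corrected by Agilent Feature Extraction 9.5.3.1 per the file headers. Array precision is limited by the number of arrays and by signal over background: 52.7% to 88.1% of spots were well above background, and 0 to 3 per array were saturated.

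Control spots and spots with outlier flags were left out, spots of 1 probe were averaged, and log2 signals were set against each array's 75th percentile of the 43118 non-control spots. A probe that exceeded background clearly (the scanner flag) in every array of some treatment was tested with limma 3.58.1 in R 4.3.3 on all 24 arrays, with the experiment as a block, and p-values were adjusted over all 18983 probes. The labels give the experiment numbers. Same-numbered arrays deviated together from their treatment means (r over 0.1 in 35 of 36 pairs, lowest -0.22). Arrays of different numbers were not compared in this way, so these values do not separate the experiment from the scan. The fit was tested on simulated data, where it called 95 of 100 probes changed by 1.5 on the log2 scale in DoxyNaB over NaB and 81 of 100 in the interaction, with 0 and 2 false calls. Experiment 1 had its butyrate arrays on another slide and scan than its arrays without butyrate, experiments 2 to 6 lay on 1 slide each, and experiments 2 to 4 and 5 to 6 were scanned together.

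The members and gene lists were chosen with earlier results of these data known. Named beyond the 10 members, each through its brightest probe, were up to 6 genes per list or neighbourhood with the largest change among those called with butyrate or passing the interaction, the 3 probes most like S100A4 and S100P, and TCF7L2 and AXIN2 as checks. MYH9, CACYBP, ANXA2, S100A5 and S100PBP were named outside this rule, after their values were seen, as were the printed promoters. Gene symbols are those of the files, updated through RefSeq accessions. A gene dim on every array of a treatment is given as a bound, which holds for the main scaling only. Promoters came from RefSeq (GRCh38.p14) and probe positions from the files (NCBI36). The alternatives were normexp (offset 50), quantile normalization, median scaling after a floor of 5, and other filters, thresholds and blocks. Further ones were the methods' t-test, each experiment left out and each scan batch. That t-test is paired, and Benjamini-Hochberg adjustment was added to it, which the methods do not name. The scaling over probes and the fit without 2 arrays were added after the data were seen.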

Additional observations from a re-analysis of the deposited data

Results flagged for a closer look

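In 43 groups of 6 arrays, 1 per member probe and treatment with a value on every array, 9 had 1 array far above the other 5, and in all 9 it was the array of experiment 1, in Ctl or Doxy. Chance gives such a gap in about 1 of 20 groups, and the groups are not independent, since they share arrays. The gap to the nearest array, as a share of the group's range, was 0.761 for S100A4 in Ctl (level 5.41, nearest 4.51) and 0.655 in Doxy (4.97, nearest 4.44). For S100A6 it was 0.820 in Ctl (7.53, nearest 6.88) and 0.670 in Doxy (7.42, nearest 7.12). The S100A11 probes gave 0.721 (4.82, nearest 4.22) and 0.744 (5.04, nearest 4.34) in Doxy. S100A13 gave 0.680 in Ctl (4.09, nearest 3.56), S100A2 0.634 in Doxy (3.32, nearest 2.67) and S100A16 0.692 in Doxy (4.19, nearest 3.75). In experiment 1 the Ctl and Doxy arrays lay on 1 slide and in 1 scan of their own, and the NaB and DoxyNaB arrays on another slide and scan, so within that experiment butyrate cannot be told apart from slide and scan, and the block for the experiment does not remove it. With the slide as the block, and without experiment 1, each butyrate comparison called 5 of the 11 probes. With the slide as the block, the change with butyrate within experiment 1 is also set aside, so these fits are not separate checks.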

How the results depend on the processing

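The 5 falls called in each butyrate comparison kept their direction under every alternative run, and those of S100A2, S100A10, S100A14 and S100A16 were also called in each. Scaling by the median after a floor of 5 called 11 and 9 probes in NaB over Ctl and DoxyNaB over Doxy, and it moved the median of all probes to -0.56 and -0.44. A fold over 1.5 called 8 and 9. Leaving out 1 experiment at a time called 4 to 5 and 5 probes, and in the other comparisons 0. The one lost was S100A3 without replicate 5 (-1.13, adjusted p = 0.0105). S100A3 also failed in experiments 2 to 4, under the methods' t-test (adjusted p = 0.0301 and 0.0114) and, in DoxyNaB over Doxy, with normexp (-0.98). The cause was not tested. With no replicate block the counts were 5, 5, 0, 0 and 0, so the block changed no member's call, while over all probes the interaction went from 236 to 85.

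Signs turned with normexp for S100P (0.061 in DoxyNaB over Doxy, -0.11 in Doxy over Ctl, 0.29 in DoxyNaB over NaB, -0.40 in the interaction) and S100A4 (0.11 in Doxy over Ctl, -0.17 in DoxyNaB over NaB, 0.28 in the interaction), and with quantile normalization for S100P (0.15 in DoxyNaB over NaB, -0.12 in the interaction). S100A11 was called in DoxyNaB over Doxy with normexp and with the percentile over probes (-1.01). The change of S100A14 in Doxy over Ctl was 0.48 to 0.77 (adjusted p 0.0358 to 1).

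Over all probes, in the order NaB over Ctl, DoxyNaB over Doxy, Doxy over Ctl, DoxyNaB over NaB and interaction, normexp called 3001, 3628, 11, 38 and 43. Median scaling called 5, 44 and 9 in the last 3, and the methods' t-test 3, 15 and 0. In Doxy over Ctl the compared groups alone, or the filter on all 24 arrays, called 12. A fold over 1.5 called 9820, 9593, 55 and 210. The interaction had 144 without a filter, 421 at an adjusted p under 0.05 and 118 to 196 with 1 experiment left out. Experiments 2 to 4 gave 3, 36 and 5 in the last 3 comparisons, and experiments 5 and 6 gave 0, 3 and 0. Low signal limits S100P, the only member not well above background on all arrays. S100A3 was well above background on all arrays but dim on some butyrate arrays, as given above.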
